A study of Mus musculus with 36 samples.

Results

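The genes examined here write, maintain or remove DNA methylation: Dnmt3a, Dnmt3b, Dnmt3l, Dnmt1, Uhrf1, Tet1 and Tet2. Their members are all peaks that lie in 7 windows of the mouse genome, 1 around each gene, in 14 lists of ChIP-seq peaks from mouse embryonic stem cells. This gave 384 of the 292990 listed peaks, in windows of 1080 kb in all. Peaks that overlapped by at least 1 bp, in whichever list, were joined, which left 92 regions. Of these, 66 held a peak of Oct4, Sox2 or Nanog, 40 held a peak of H3K4me3 and 14 held both.

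KH2, an established mouse embryonic stem cell line, was compared after 24 h and after 3 passages in 2i medium with LIF and in serum medium with LIF. Serum cultures were kept on irradiated feeder fibroblasts, per the labels' protocols. Nanog was profiled in all 3 conditions with an antibody of the lot called lot 1 here. An antibody of another lot, called lot 2, was used on TKO cells after 24 h of 2i, on KH2 cells at that time and on serum cells labelled GFP-high. The labels describe TKO as a DNMT triple knockout. They name neither the genes deleted nor what the GFP reports, and TKO is another line than KH2. Sox2 and H3K4me3 were profiled in all 3 conditions, and Oct4 after 24 h of 2i and in serum. Each condition had 1 list of peaks, so no difference between conditions was tested and none can be set against the spread between cultures.

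Dnmt3a and Dnmt3b are the de novo DNA methyltransferases, which place methyl groups on unmethylated CpG sites, and Dnmt3l is their catalytically inactive cofactor. Dnmt1 copies methylation to the new strand after replication and is brought there by Uhrf1, which binds hemimethylated DNA. Tet1 and Tet2 oxidise methylcytosine, the first step of its removal. In 2i, a serum-free medium with inhibitors of MEK and GSK3, mouse embryonic stem cells are known to lose much of their genomic methylation. H3K4me3 is a histone mark found mainly at active promoters, above all those rich in CpG.

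The promoters of these genes differ in the sequence that the enzymes act on. In the 250 bases upstream of the annotated start in RefSeq (GRCm38.p6), Tet2 has 51 CpG, and 99.9% of 32851 mouse promoters have fewer. Dnmt3b has 21 CpG, with 83.7% of promoters below it. The starts of Dnmt3l have 5, 4 and 3 CpG, against a median of 6 over all promoters. Dnmt3a has starts with 38, 40 and 15 CpG, Dnmt1 with 2, 7 and 26, Uhrf1 with 10 and 30, and Tet1 has 1 start with 15. The 3 below are shown as examples from poor to rich in CpG, with 4, 21 and 51. Starts with 3 and 2 CpG, listed above, are poorer still. Each runs 5′ to 3′ on the strand of the gene, plus for Dnmt3b and Dnmt3l and minus for Tet2, with each CpG in capitals (motif CG, which reads the same on both strands).
Dnmt3b start 1: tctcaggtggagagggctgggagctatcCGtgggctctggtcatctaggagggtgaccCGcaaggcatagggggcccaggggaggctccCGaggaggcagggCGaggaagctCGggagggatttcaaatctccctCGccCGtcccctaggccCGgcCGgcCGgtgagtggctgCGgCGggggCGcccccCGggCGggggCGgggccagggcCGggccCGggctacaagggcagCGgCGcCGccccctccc
Dnmt3l start 2: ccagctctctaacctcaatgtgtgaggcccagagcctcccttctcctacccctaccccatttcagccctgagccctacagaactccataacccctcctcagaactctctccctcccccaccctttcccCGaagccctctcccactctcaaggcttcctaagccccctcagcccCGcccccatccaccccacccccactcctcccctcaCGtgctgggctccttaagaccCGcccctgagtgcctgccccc
Tet2 start 1: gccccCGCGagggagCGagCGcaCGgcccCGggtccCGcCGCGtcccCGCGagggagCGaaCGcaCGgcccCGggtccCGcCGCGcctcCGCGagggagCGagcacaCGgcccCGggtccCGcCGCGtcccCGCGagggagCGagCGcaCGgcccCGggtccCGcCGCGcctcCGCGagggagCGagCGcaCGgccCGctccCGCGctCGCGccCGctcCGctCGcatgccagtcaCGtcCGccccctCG
The peaks are in mm9, another build, so no peak can be placed on these sequences or assigned to a gene, exon or promoter here. The windows may also hold parts of other genes. In RefSeq the nearest protein-coding genes on either side are Dtnb and Pomc for Dnmt3a, Commd7 and Mapre1 for Dnmt3b, Aire and Icosl for Dnmt3l, Eif3g and S1pr2 for Dnmt1, Arrdc5 and Kdm4b for Uhrf1, Ccar1 and Slc25a16 for Tet1, and Ppa2 and Cxxc4 for Tet2.

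All 3 factors met in every list at 3 regions. These, 1 each at Dnmt3b, Uhrf1 and Tet2, held a peak in all 11 lists of Oct4, Sox2 and Nanog. A region in the Dnmt3l window also held Oct4 in both of its lists, with Nanog in 4 and Sox2 in 2. No Oct4 peak was listed in the windows of Dnmt3a or Dnmt1. Nanog peaks at Tet1 numbered 17 in the TKO list and between 6 and 13 in the KH2 lists. These counts are not corrected for list length. The TKO list has 38518 peaks, and the lot 2 list of KH2 cells, with 6 at Tet1, has 21893. Over all windows, the members were 0.114% and 0.105% of these lists. The lot 1 list after 24 h is longer than the TKO list, with 41755 peaks, and held 13 at Tet1. The difference at Tet1 was not tested. H3K4me3 was called in every window in every condition. Positions below are mm9, counted from 1. Fold enrichment is the authors' ratio of ChIP over control at a peak. It orders peaks within a list, but it is not on 1 scale across lists, so folds of different lists are set side by side without a reading of gain or loss.

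**Figure D1:**
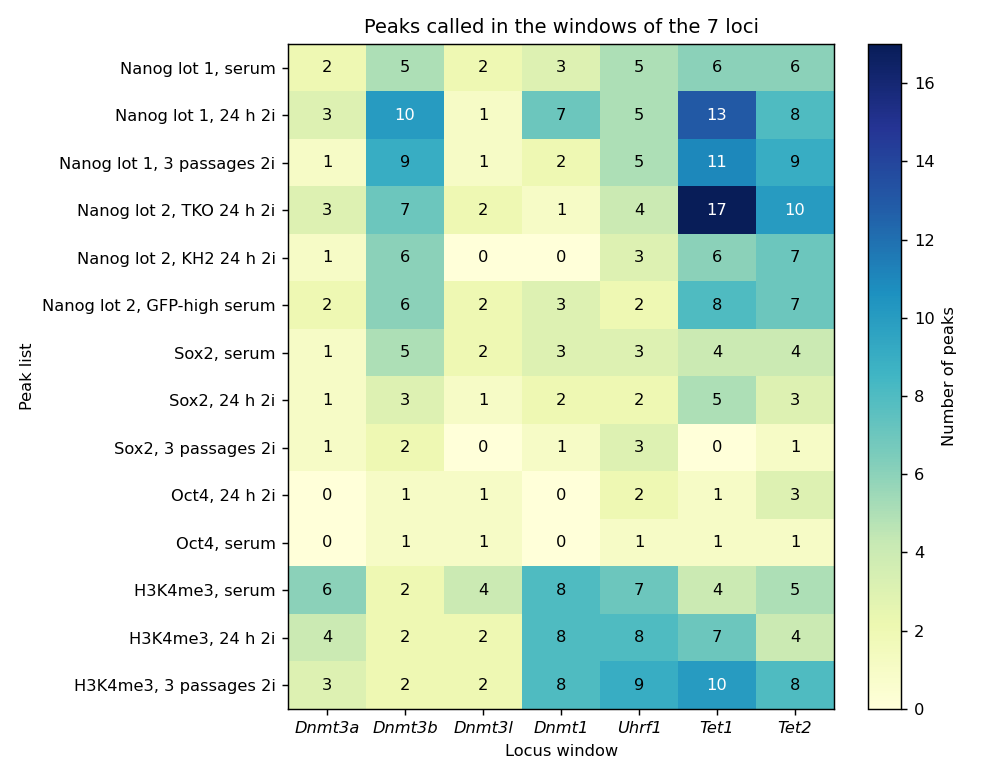
Number of peaks in the window of each locus (columns) in each of the 14 peak lists (rows). The highest count is 17, for Nanog at Tet1 in the TKO list, and Dnmt3a and Dnmt1 hold no Oct4 peak.

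In the Dnmt3a window, 12 regions were called, and 1 was bound by several factors. It lay at chr12:3889430-3890652. The Nanog fold there was 36.8 in serum, 25.97 after 24 h and 18.2 after 3 passages with lot 1. With lot 2 it was 12.6 in TKO cells and 13.9 in KH2 cells at 24 h, and 27.5 in GFP-high serum cells. The Sox2 fold was 16.0 in serum, 5.52 after 24 h and 5.58 after 3 passages. The region was thus called in all 9 lists of Nanog and Sox2 and in neither list of Oct4. An H3K4me3 summit lay 1.3 kb from its centre, at chr12:3890869-3891684, with folds of 7.69 in serum and 5.20 after 24 h and no peak listed after 3 passages.

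The other Nanog peaks at Dnmt3a were weaker or limited to 1 or 2 lists. At chr12:3884887-3885582 the lot 1 fold was 16.7 in serum and 9.77 after 24 h, with no peak after 3 passages. A peak at chr12:3791541-3792183 was listed in TKO cells alone, at a fold of 12.6. H3K4me3 was called at 6 places in the window. The peak at chr12:3959577-3960899 had folds of 18.7, 7.27 and 7.86 in serum, after 24 h and after 3 passages. The region at chr12:3805959-3808913 was a peak of 2955 bp with a fold of 14.3 in serum, and 2 peaks in either 2i list, the stronger with folds of 10.8 after 24 h and 11.4 after 3 passages. Weak peaks of 701 to 1243 bp at chr12:3871001-3872243, chr12:3873660-3874360 and chr12:3891820-3893010 were listed in serum alone, with folds between 5.15 and 5.94.

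In the Dnmt3b window 14 regions and 61 peaks were called. The region at chr2:153447927-153448890 was called in all 11 factor lists. The lot 1 Nanog fold was 39.9 in serum, 52.1 after 24 h and 31.1 after 3 passages. With lot 2 it was 25.7 in TKO cells and 29.4 in KH2 cells at 24 h, and 47.3 in GFP-high serum cells. The Sox2 fold was 25.1 in serum, 22.9 after 24 h and 12.6 after 3 passages. For Oct4 it was 88.3 after 24 h, at the 99.0 percentile of that list, and 51.0 in serum, at the 96.5 percentile. The summits of the 11 lists fell within 90 bp of each other, and the nearest H3K4me3 summit was 9.8 kb away.

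A further 2 regions flanked it, 1 on either side. At chr2:153468097-153469484 all 9 lists of Nanog and Sox2 held a peak, with lot 1 Nanog folds of 42.8 in serum, 39.2 after 24 h and 30.9 after 3 passages. Sox2 stood at 14.9 in serum, 5.05 after 24 h and 5.39 after 3 passages there. At chr2:153420342-153421475 all 6 Nanog lists held a peak, with lot 1 folds of 47.4 in serum, 25.4 after 24 h and 18.2 after 3 passages. Sox2 was listed at that place in serum alone, at a fold of 18.1, the 85.8 percentile of its list. Neither place held an Oct4 peak.

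Other Nanog sites in the window differed in the lists that called them. At chr2:153437171-153438012 Nanog was listed in every list but lot 1 serum, with a fold of 18.8 after 24 h and 6.23 after 3 passages with lot 1, and Sox2 in serum and after 24 h at 6.36 and 8.87. At chr2:153441040-153441597 Nanog was listed in the 4 lists of 2i cells and in neither serum list, with lot 1 folds of 14.3 after 24 h and 7.77 after 3 passages. A site at chr2:153467319-153467942 had the opposite pattern, with a Nanog fold of 24.2 and a Sox2 fold of 7.70 in the serum lists of lot 1 Nanog and of Sox2, and no peak in any other list. Nanog sites at chr2:153438281-153438844 and chr2:153506528-153507501 were listed in 3 and 4 of the 2i lists and in no serum list, with folds of 5.42 to 12.3, and the site at chr2:153464680-153465930 in both serum lists and both lot 1 lists of 2i, with folds of 4.99 to 8.95. At chr2:153558379-153559164 a peak was listed in lot 1 after 3 passages, at a fold of 7.49, and in GFP-high serum cells, at 12.1.

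H3K4me3 was called at 2 places in the Dnmt3b window in every condition. The stronger, at chr2:153474712-153476904, had folds of 32.4 in serum, 14.2 after 24 h and 10.3 after 3 passages. It was at the 97.3, 80.4 and 51.0 percentile of these lists. Among the strongest H3K4me3 peaks of the 7 windows it came at place 2 in serum, place 5 after 24 h and place 7 after 3 passages, whereas that of Tet2 came at places 3, 1 and 1. The weaker one, at chr2:153457639-153458934, had folds of 12.7, 7.72 and 7.06 in the same order. Both peaks covered 3489 bp together in serum, 2573 bp after 24 h and 2524 bp after 3 passages.

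In the Dnmt3l window 7 regions were called and 1 was bound by all 3 factors, at chr10:77559053-77559935. The lot 1 Nanog fold was 36.0 in serum, 37.6 after 24 h and 12.7 after 3 passages. With lot 2 a peak was listed in GFP-high serum cells, at 22.0, but in neither TKO nor KH2 cells after 24 h of 2i. The Sox2 fold was 13.7 in serum and 9.0 after 24 h, with no peak listed after 3 passages. The Oct4 fold was 22.8 after 24 h and 32.9 in serum. At 24 h the 2 antibody lots thus disagreed on this site in KH2 cells, with a lot 1 peak at the 94.0 percentile of its list and no lot 2 peak. The nearest H3K4me3 summit was 27.3 kb away.

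H3K4me3 at Dnmt3l was called at 4 places in serum and at 2 in either 2i list. Those at chr10:77471047-77473537 and chr10:77531656-77532891 were in all 3 lists, with folds of 18.8, 14.1 and 17.8 at the one nearer the start of the window and 25.2, 12.8 and 13.7 at the other in serum, after 24 h and after 3 passages. Listed in serum alone were a peak of 2239 bp at chr10:77512594-77514832, with a fold of 10.2, and one of 645 bp at chr10:77497119-77497763, with a fold of 6.22. The broader of these was at the 40.6 percentile of its list, so it was not a strong peak there. A weakly bound region next to it, at chr10:77510762-77511578, held Nanog peaks in lot 1 serum, in TKO cells and in GFP-high serum cells, with folds of 7.90, 8.71 and 8.83, and a Sox2 peak in serum at 4.97. No 2i list of KH2 cells held a peak there.

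**Figure D2:**
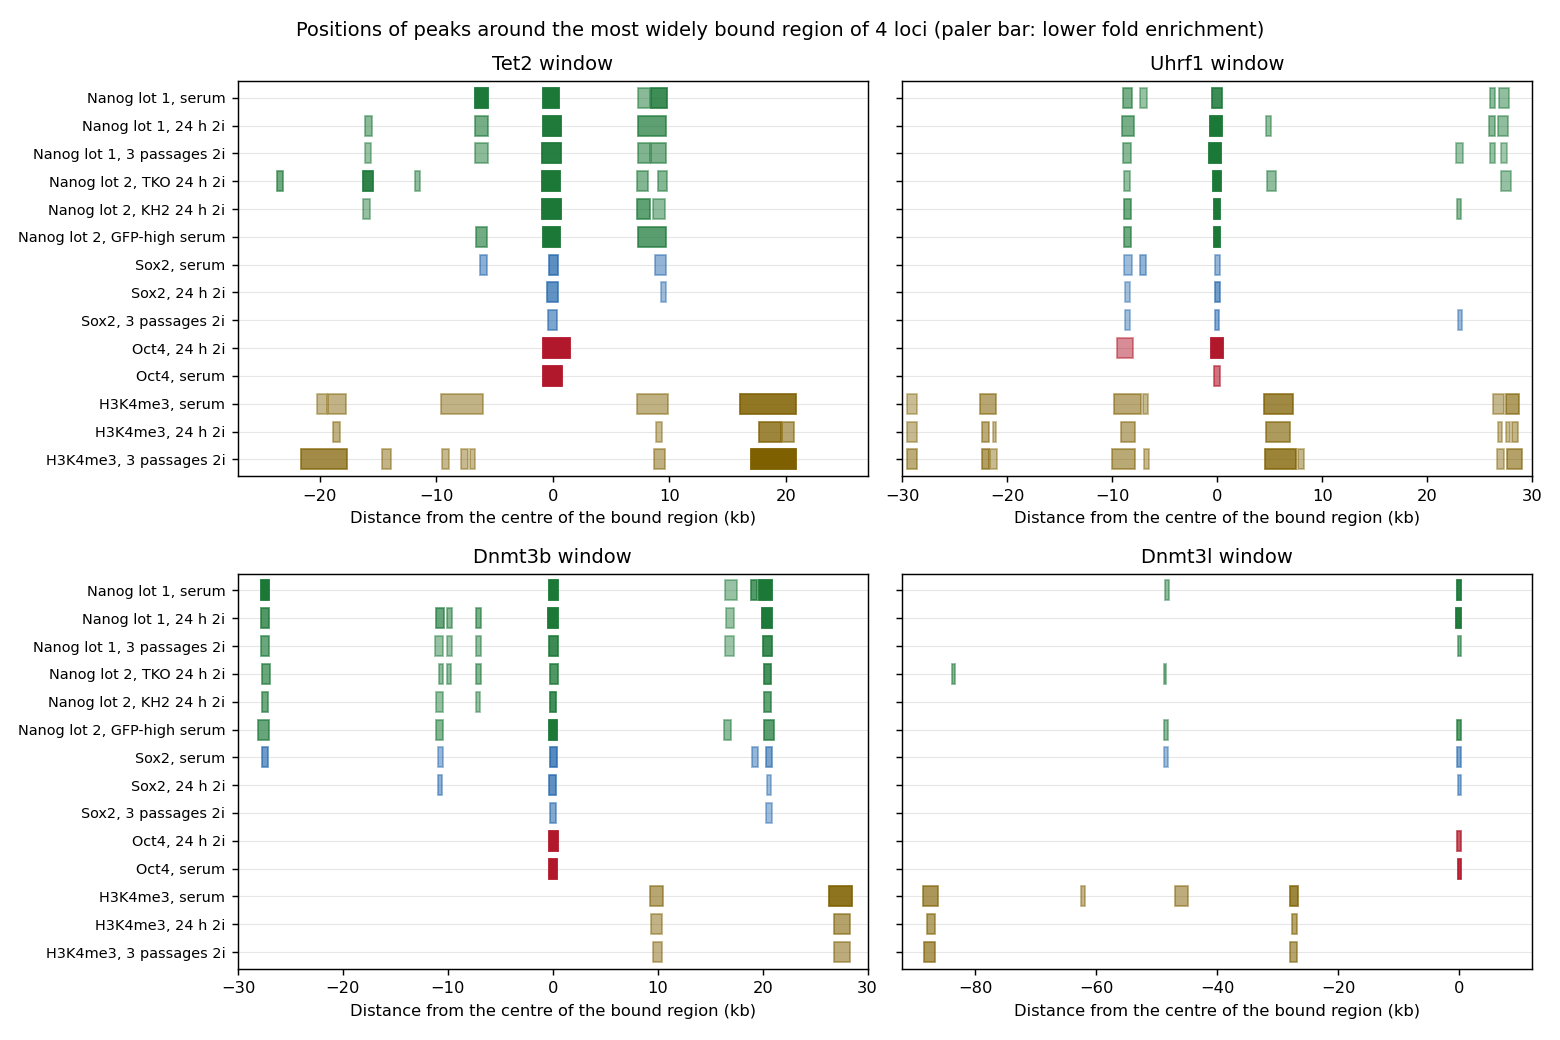
Positions of the peaks of all 14 lists (rows) around the most widely bound region of the Tet2, Uhrf1, Dnmt3b and Dnmt3l windows, as distance in kb from its median summit, within the range drawn. Nanog, Sox2 and Oct4 peaks stack at distance 0, except that the Dnmt3l region lacks a peak in 3 lists, and H3K4me3 peaks lie to the side.

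In the Dnmt1 window 11 regions were called, 8 of them with H3K4me3 and 4 with both H3K4me3 and a factor. The most widely called region, at chr9:20782516-20784106, had lot 1 Nanog folds of 14.1 in serum, 17.1 after 24 h and 7.81 after 3 passages. With lot 2 the fold was 7.77 in TKO cells and 11.5 in GFP-high serum cells, with no peak in KH2 cells after 24 h of 2i. Sox2 had its strongest Dnmt1 peak there, with folds of 20.1 in serum, 9.29 after 24 h and 8.07 after 3 passages. The summits in this region were spread over 830 bp. Those of Sox2 lay at chr9:20783011-20783077 and those of Nanog at chr9:20783710-20783841. After 3 passages the Sox2 and Nanog peaks did not overlap, so the factors need not share 1 site. The median summit of the region was 2.8 kb from the nearest H3K4me3 summit. The lot 2 list of KH2 cells held no Nanog peak anywhere in the window, where lot 1 held 7 at the same time of 24 h. Some of these 7 had a −log10 q of 16.5 to 18.8, below the lowest of the lot 2 list, 23.2. The others had 40.9 to 135. The lot 1 list is also longer, with 41755 peaks against 21893.

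Nanog was listed at further Dnmt1 sites. That at chr9:20805888-20806534 had lot 1 folds of 8.90, 12.05 and 4.55 in serum, after 24 h and after 3 passages, and 6.16 in GFP-high serum cells. A site at chr9:20795336-20796026 was listed for Nanog after 24 h and in GFP-high serum cells, with folds of 6.25 and 6.91, and for Sox2 in serum at 7.49, and the H3K4me3 region at chr9:20779077-20781978 held Nanog at 5.42 after 24 h and Sox2 at 6.72 in serum and 4.81 after 24 h. H3K4me3 was called as 8 peaks in each of the 3 conditions. The strongest in serum and after 3 passages, at chr9:20692165-20695809, had folds of 35.2 in serum, 17.1 after 24 h and 25.5 after 3 passages. The region at chr9:20701357-20703260 stood at 26.4, 20.3 and 22.1 and was the strongest after 24 h. That at chr9:20779077-20781978 stood at 25.0, 14.04 and 19.4, and that at chr9:20755489-20758118 at 20.9, 10.8 and 20.5. Weaker were chr9:20672824-20674324, with folds of 13.5, 5.64 and 6.35, chr9:20806670-20808438, with 15.5, 7.597 and 9.02, and chr9:20681907-20683517, with strongest folds of 8.40, 4.99 and 7.67. Nanog was listed in lot 1 after 24 h at chr9:20806670-20808438, with 4.22, and at chr9:20681907-20683517, with 4.72. The region at chr9:20787559-20788412 held a short H3K4me3 peak of 331 bp after 24 h alone, at 5.23. It also held lot 1 Nanog, at 6.68 in serum and 7.68 after 24 h.

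In the Uhrf1 window 8 regions were called, and the ranks of the 3 factors differed at the most widely bound one. At chr17:56437070-56438412 all 11 factor lists held a peak. The lot 1 Nanog fold was 30.7 in serum, 55.3 after 24 h and 43.4 after 3 passages. With lot 2 it was 107 in TKO cells, at the 99.5 percentile of that list, 61.1 in KH2 cells at 24 h and 67.4 in GFP-high serum cells. The Sox2 fold was 7.50 in serum, 17.2 after 24 h and 11.7 after 3 passages, which put it at the 24.1, 94.8 and 85.4 percentile of its lists. The Oct4 fold was 52.7 after 24 h, at the 93.8 percentile, and 15.3 in serum, at the 31.5 percentile. Both Sox2 and Oct4 thus ranked low in their serum lists at this site and high in their 24 h lists, while Nanog was at or above the 88.4 percentile in each of its lists. Since the lists differ in length and threshold, these ranks do not show a change by themselves. The 11 summits lay within 72 bp, and the nearest H3K4me3 summit was 5.2 kb away.

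A second site at Uhrf1 was overlapped by H3K4me3. At chr17:56427861-56431409 peaks were called in 10 of the 11 factor lists, Oct4 in serum being the exception. The strongest lot 1 Nanog peak had a fold of 15.0 in serum, 15.2 after 24 h and 10.6 after 3 passages, and Oct4 after 24 h had 9.11, at the 0.8 percentile of its list. H3K4me3 over it had folds of 11.6, 10.04 and 11.8 in serum, after 24 h and after 3 passages. The region at chr17:56463831-56466962 held Nanog in all lot 1 lists and in TKO cells, with folds of 4.01 to 10.02. It also held H3K4me3, with strongest folds of 16.9, 6.86 and 14.9 in serum, after 24 h and after 3 passages. These peaks were joined into 1 region but did not all overlap. The strongest Nanog peak, at 10.02 after 24 h, lay outside the H3K4me3 peaks of that time. At chr17:56460669-56461313 Nanog was listed in lot 1 after 3 passages, at 5.60, and in lot 2 KH2 cells after 24 h, at 8.55, and Sox2 after 3 passages at 5.85.

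The strongest H3K4me3 peak of the Uhrf1 window, at chr17:56442324-56445377, had folds of 24.1 in serum, 17.6 after 24 h and 26.5 after 3 passages. It came at place 6 of the 7 loci in serum, place 4 after 24 h and place 2 after 3 passages. Nanog was listed under it after 24 h alone, at 7.23 in lot 1 KH2 cells and 8.34 in lot 2 TKO cells. The region at chr17:56408327-56409315 stood at 3.98, 5.52 and 10.6, and that at chr17:56415332-56416926 at 12.6, 10.2 and 15.3 for its strongest peak. A peak of 524 bp at chr17:56445607-56446130 was listed after 3 passages alone, with a fold of 5.71.

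Tet1 had the most regions, 23, and the most peaks, 93. Nanog sites clustered around a wide stretch of H3K4me3 that spanned chr10:62345977-62352631 and chr10:62352754-62357632. In serum the first of these was 1 peak of 6636 bp with a fold of 26.2. In either 2i list it was split into 3 peaks, the strongest with a fold of 17.8 after 24 h and 20.6 after 3 passages. The second had folds of 29.3 in serum, 12.1 after 24 h and 21.9 after 3 passages. Taken over the window, H3K4me3 peaks numbered 4 in serum, 7 after 24 h and 10 after 3 passages, and they covered 16043, 13235 and 16430 bp. Nanog under the first region was weak, with strongest folds of 5.00 to 8.27 in every list but lot 1 serum.

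The second of these H3K4me3 regions was also the most widely called factor region at Tet1, with 9 factor lists. Its strongest Nanog peak had lot 1 folds of 28.3 in serum, 25.5 after 24 h and 19.8 after 3 passages. With lot 2 it was 35.7 in TKO cells and 12.04 in KH2 cells at 24 h, and 23.2 in GFP-high serum cells. Sox2 was at 6.44 in serum and, at an overlapping place, 4.00 after 24 h, with a separate peak of 4.60 beside it after 24 h. Oct4 was listed in serum alone, at 8.54, the 0.9 percentile of its list.

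Just beyond it, at chr10:62358844-62360549, Nanog was called in all 6 lists. The folds were 31.7 in serum, 28.4 after 24 h and 21.1 after 3 passages with lot 1, and 69.2 in TKO cells, 20.6 in KH2 cells at 24 h and 17.2 in GFP-high serum cells with lot 2. The TKO peak was at the 98.2 percentile of its list and the KH2 peak at the 80.5 percentile of its own. Sox2 was listed there in serum at 6.67 and after 24 h at 4.45, and H3K4me3 after 3 passages alone at 4.56. The next site, at chr10:62360684-62361811, was called in all 6 Nanog lists, with folds of 7.14 to 19.3, and by Oct4 after 24 h, at 12.6. Beside it, chr10:62362289-62363403 was called in every Nanog list but lot 1 serum, with strongest folds of 6.04 to 15.1.

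Several Tet1 sites stood out in the TKO list alone or in few lists beside it. In TKO cells the Nanog fold was 21.7 at chr10:62306334-62307243, 26.6 at chr10:62309621-62310624, 22.8 at chr10:62371318-62372322 and 14.7 at chr10:62358127-62358777, all above the median of that list, 10.8. None of these places had a lot 2 peak in KH2 cells. With lot 1, KH2 cells had a peak at the first of them after 24 h and 3 passages, with folds of 11.7 and 9.93, at the second after 24 h, with 7.29, and at the last in all 3 conditions, with 9.51, 6.46 and 5.26. The site at chr10:62371318-62372322 had no other Nanog peak. A site at chr10:62271855-62272607 was called in 5 Nanog lists, with folds of 7.44 to 13.1, and in Sox2 after 24 h at 4.50, and weak Nanog peaks with folds of 4.59 to 6.92 were listed at chr10:62311290-62312063 in the lot 1 lists of 2i and in TKO cells.

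The strongest Sox2 peak at Tet1 lay at chr10:62253441-62256542 in serum, with a fold of 11.4, inside an H3K4me3 region with folds of 17.2, 8.93 and 16.5 in serum, after 24 h and after 3 passages. Nanog was listed there with lot 2 alone, at 9.30 in TKO cells and 7.20 in GFP-high serum cells. No Sox2 peak was listed in the Tet1 window after 3 passages, against 4 in serum and 5 after 24 h. The 3-passage list is the shortest of Sox2, with 8749 peaks, against 13128 in serum and 15310 after 24 h. All 5 peaks after 24 h were below its lowest −log10 q, 7.52. The H3K4me3 region at chr10:62382475-62384684 was in all 3 lists with folds of 23.7, 12.5 and 13.8. Short H3K4me3 peaks of 321 to 485 bp were listed in 2i alone, at chr10:62297217-62297568 in both 2i lists and at chr10:62368893-62369377 and chr10:62371318-62372322 after 3 passages, with folds of 5.00 to 6.18.

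In the Tet2 window 17 regions were called. That at chr3:133186839-133189255 held a peak in all 11 factor lists. The lot 1 Nanog fold was 51.4 in serum, 38.8 after 24 h and 37.0 after 3 passages. With lot 2 it was 125 in TKO cells, 59.2 in KH2 cells at 24 h and 60.4 in GFP-high serum cells. The Sox2 fold was 23.3 in serum, 22.4 after 24 h and 14.4 after 3 passages, and the Oct4 fold 74.6 after 24 h and 49.9 in serum. In every list the peak was at or above the 92.1 percentile of fold. The summits lay within 74 bp, 6.9 kb from the nearest H3K4me3 summit.

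**Figure D3:**
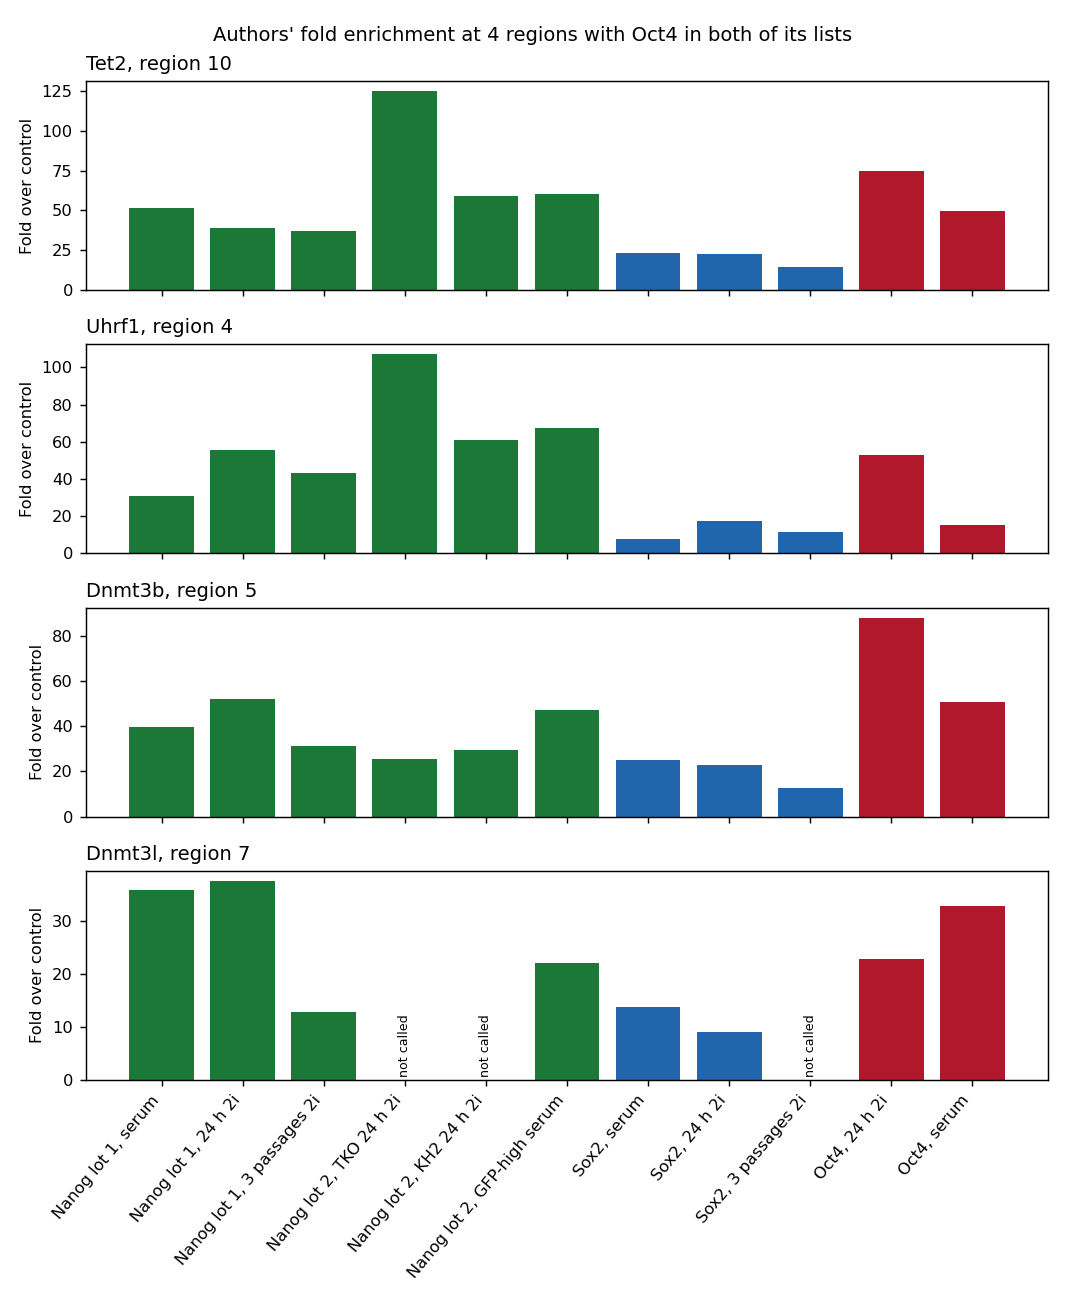
The authors' fold enrichment over control (vertical axes, linear, from 0) in the 11 factor lists at the 4 regions with an Oct4 peak in both Oct4 lists; folds are not on 1 scale across lists. The Tet2 and Uhrf1 regions have folds of 125 and 107 in the TKO list, and the Dnmt3l region lacks a peak in 3 lists.

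The Tet2 window held further sites with other patterns. At chr3:133178191-133182250 the lot 1 Nanog fold was 39.4 in serum, 15.4 after 24 h and 9.30 after 3 passages. With lot 2 it was 16.0 in GFP-high serum cells, with no lot 2 peak in 2i in TKO or KH2 cells, and Sox2 was listed there in serum alone, at 10.3. In serum an H3K4me3 peak of 3661 bp, with a fold of 7.87, overlapped 1 end of the lot 1 Nanog peak, whose summit lay outside it. No H3K4me3 peak was listed there after 24 h. After 3 passages, 3 peaks of 468 to 613 bp with folds of 4.55 to 5.55 lay within the stretch of the serum H3K4me3 peak. At chr3:133171504-133172357 the order was different, with Nanog at 34.4 in TKO cells and 6.86 in KH2 cells at 24 h with lot 2, at 9.41 after 24 h and 5.89 after 3 passages with lot 1, and in neither serum list. At chr3:133195037-133197637 all 6 Nanog lists had peaks, the strongest with folds of 11.7 to 30.6, and Sox2 was listed in serum at 8.44 and after 24 h at 5.40. The strongest factor peaks of the lists were not at 1 site, their summits being spread over 1541 bp. In order of position, Nanog stood at 10.1 and 30.6 in lot 1 serum. In lot 2 KH2 cells at 24 h it stood at 21.4 and 8.37.

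Beyond the strongest H3K4me3 region lay 3 Nanog sites called in several lists, of which 2 also held Oct4 after 24 h. At chr3:133240175-133240699 the Oct4 fold was 25.7 after 24 h, with no peak in serum, and Nanog was listed in lot 1 after 24 h at 9.54, in TKO cells at 11.3 and in GFP-high serum cells at 24.9. At chr3:133253410-133254467 the Oct4 fold was 28.3 after 24 h, with no peak in serum. Nanog there was at 17.3 in serum, 13.9 after 24 h and 6.83 after 3 passages with lot 1 and 20.4 in GFP-high serum cells, with no lot 2 peak in 2i, and Sox2 at 9.85 in serum and 5.35 after 24 h. At chr3:133234720-133235756 Nanog was listed in the 4 lists of 2i cells and in neither serum list, with folds of 5.42 to 16.1. At the other end of the window, chr3:133084983-133085580 and chr3:133100869-133101801 had lot 2 peaks in KH2 cells after 24 h, at 15.6 and 25.6, and in GFP-high serum cells, at 11.2 and 20.7, and none in TKO cells. With lot 1 the first of them had folds of 12.3 in serum, 7.77 after 24 h and 4.99 after 3 passages, and the other a peak after 3 passages alone, at 12.1. A peak at chr3:133164111-133164698 was listed in TKO cells alone, at 16.8.

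H3K4me3 at Tet2 was led by 1 region. That at chr3:133203852-133208655 had strongest folds of 31.4 in serum, 25.4 after 24 h and 43.1 after 3 passages, at the 96.8, 97.9 and 99.0 percentile. The region at chr3:133166208-133170108 differed in width between lists. It held peaks of 863 and 1555 bp with folds of 5.47 and 7.87 in serum, a peak of 637 bp with 8.10 after 24 h, and a peak of 3901 bp with 23.1 after 3 passages. The H3K4me3 peaks at chr3:133195037-133197637 had folds of 8.65, 4.68 and 8.48, and peaks at chr3:133091691-133092296 and chr3:133173117-133173899 were listed after 3 passages alone, at 6.99 and 7.27. The covered length over the window was 13462 bp in serum, 3982 bp after 24 h and 11755 bp after 3 passages.

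**Figure D4:**
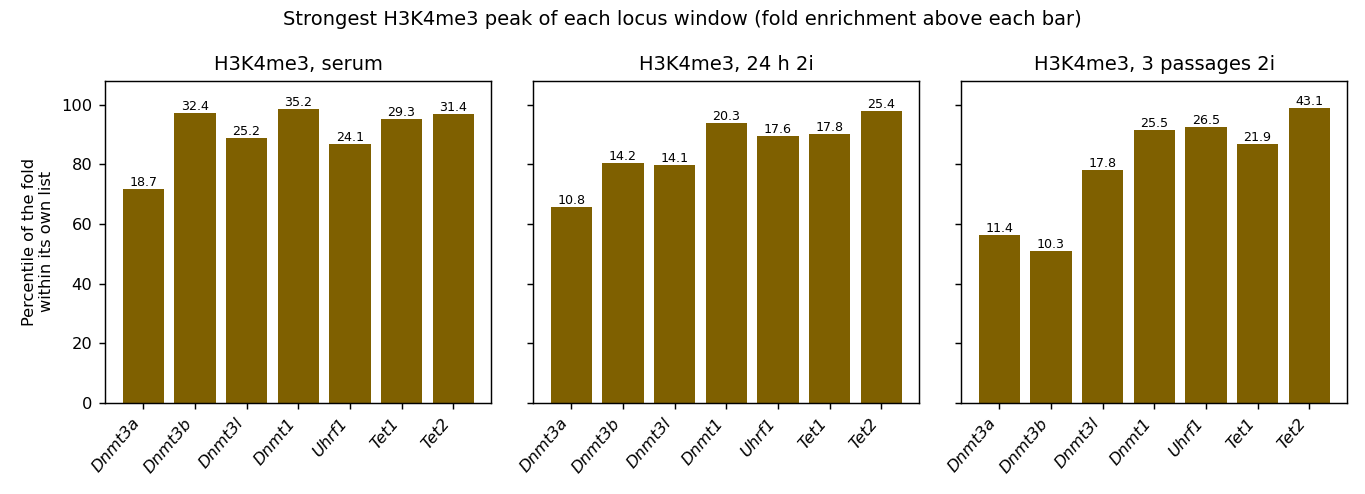
Percentile, within its own list, of the fold of the strongest H3K4me3 peak of each locus window (vertical axis, percent), with the fold itself above each bar, in serum, after 24 h and after 3 passages of 2i. Tet2 stands at the 96.8, 97.9 and 99.0 percentile and Dnmt3b at the 97.3, 80.4 and 51.0 percentile.

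The other 17 regions of the windows held factor peaks in 1 or 2 lists, with folds of 4.50 to 10.1, and no H3K4me3.

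The binding calls were then compared between lists of the same factor, to ask how the loci fared on the move to 2i. A region counts as called in a list if it holds a peak of it. A region with no peak may still hold reads under the threshold of that list, and the read depths are unknown. Each share is given beside the share of all regions of the 2 lists, because lists of different length produce such regions everywhere.

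Nanog calls of lot 1 at the 7 loci differed between lists about as those of all regions did. With lot 1, of 51 regions, 23 were called after 24 h and not in serum and 4 in serum only, which is 45.1% and 7.84%, against 44.5% and 8.95% of all regions. After 3 passages, of 44 regions, 15 were called in 2i and not in serum and 6 in serum only, or 34.1% and 13.6%, against 36.4% and 16.9% overall. Between 3 passages and 24 h, of 50 regions, 4 were called at 3 passages only and 13 at 24 h only, or 8.0% and 26%, against 10.7% and 28.8%. These shares lie near those of all regions, and they are no result about the loci. With lot 2, of 36 regions, 6 were called at 24 h in KH2 cells and not in GFP-high serum cells and 14 in GFP-high serum cells only, or 16.7% and 38.9%, against 19.2% and 33.2%. With lot 2 more regions were thus listed in serum than after 24 h, where lot 1 had the opposite order. At equal list length, 8 of 36 lot 1 regions were in 24 h only and 7 in serum only. These are 22.2% and 19.4%, against 24% and 23.8% of all regions. For 3 passages, 8 of 37 were in 2i only and 10 in serum only. These are 21.6% and 27%, against 26% and 25.6%. The serum cells of lot 2 were GFP-high cells and those of lot 1 were not labelled so, which cannot be told apart from the lot.

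The TKO list at 24 h held 25 of 48 regions that the KH2 list of lot 2 did not, or 52.1%, against 51.8% of all regions. In the other direction there were 4, or 8.33%, against 15.2%. At equal list length, 10 of 33 were in TKO cells only and 4 in KH2 cells only. These are 30.3% and 12.1%, against 29.7% and 29.7% of all regions, and the departure was not tested. By locus, 12 of the 18 Tet1 regions were in TKO cells only, against 5 of the 12 at Tet2 and 1 of the 7 at Dnmt3b. At Dnmt3a they were 2 of 3, at Dnmt3l 2 of 2, at Dnmt1 1 of 1 and at Uhrf1 2 of 5. The share at Tet1 was thus not the highest. The libraries differ in cell line as well as genotype, which cannot be told apart. Between the lots at 24 h, 27 of 49 regions were in the lot 1 list only and 2 in the lot 2 list only. These are 55.1% and 4.08%, against 51.6% and 7.61% of all regions. All 7 regions at Dnmt1 were in lot 1 only. Of the 27, 11 were below the lowest −log10 q of the lot 2 list, some at Dnmt1 among them.

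Sox2 calls departed most from the shares of all regions. After 3 passages, 1 of 23 regions was called in 2i and not in serum and 15 in serum only, or 4.35% and 65.2%, against 13.8% and 42.6%. These 15 lay in 6 of the 7 windows, 4 of them at Tet1, and Dnmt3a alone had none. After 24 h, of 25 regions, 3 were called in 2i only and 8 in serum only, or 12% and 32%, against 33.5% and 22.7%. The 3 were all at Tet1, and each was below the lowest −log10 q of the serum list. Between 3 passages and 24 h, 1 of 18 regions was called at 3 passages only and 10 at 24 h only, or 5.56% and 55.6%, against 8.33% and 47.5%. The Sox2 list of 3 passages is the shortest and has 1 sample, where the other Sox2 lists have 2. With so few regions and 1 list a condition, these departures were not tested. They also moved with the way the lists were matched. Set against 3 passages, 9 of 17 regions, or 52.9%, were in serum only at equal list length, beside 26.5% of all regions, and 18 of 22, or 81.8%, at a shared −log10 q threshold, beside 69.0%. Set against 24 h, 17 of 22, or 77.3%, were in serum only at a shared threshold, beside 68.1%, and 0 in 24 h only, beside 3.57%.

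Of 9 Oct4 regions, 4 were called after 24 h and not in serum and 1 in serum only, or 44.4% and 11.1%, against 43.1% and 11.1% of all regions. The 4 were the overlapping Uhrf1 site, 1 site at Tet1 and both Oct4 sites beyond the strongest H3K4me3 of Tet2. Dnmt3b, Dnmt3l, Uhrf1 and Tet2 each had 1 region called in both lists.

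H3K4me3 calls were compared in the same way. After 3 passages, of 42 regions, 7 were called in 2i and not in serum and 6 in serum only, or 16.7% and 14.3%, against 13.6% and 20.6%. The 6 in serum only were 4 of the 6 regions at Dnmt3a and 2 of the 4 at Dnmt3l, and 2 of these 6 were below the lowest −log10 q of the 3-passage list. The 7 after 3 passages only were 4 of the 8 at Tet1, 2 of the 6 at Tet2 and 1 of the 8 at Uhrf1. All 13 had a fold below the median of their own list. After 24 h, of 38 regions, 2 were called in 2i only and 9 in serum only, or 5.26% and 23.7%, against 6.27% and 24.7%. Between 3 passages and 24 h, of 44 regions, 11 were called at 3 passages only and 2 at 24 h only, or 25.0% and 4.55%, against 21.0% and 9.99%.

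**Figure D5:**
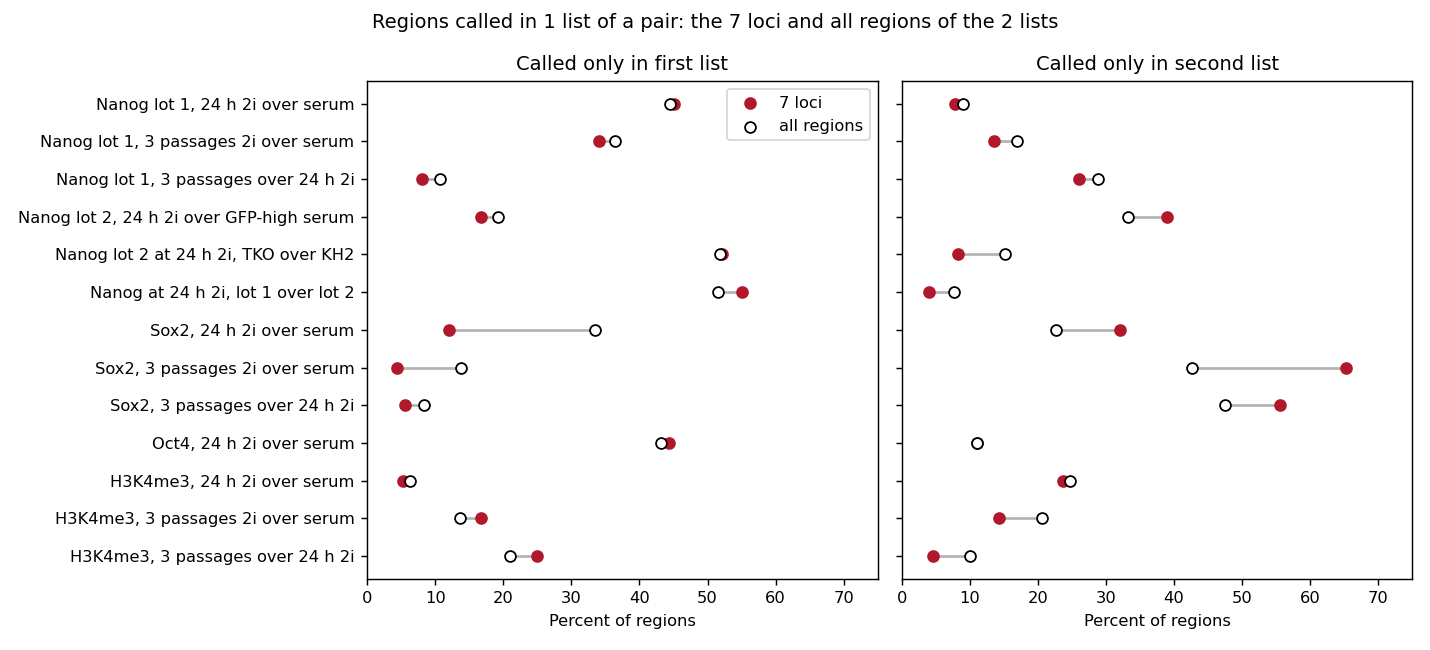
Percent of regions called in the first list only (left) and in the second list only (right) for each of the 13 comparisons, at the 7 loci (filled) and over all regions of the 2 lists (open). The points lie farthest apart for Sox2 in the comparisons with serum. There, 65.2% of the regions at the loci were in serum only when set against 3 passages, beside 42.6% of all regions. Some Nanog and H3K4me3 points also lie apart, as for Nanog in KH2 only against TKO, at 8.33% beside 15.2%.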

How the data were processed

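ChIP-seq peak lists of 22 of the 36 samples were used, as 14 lists. The 3 H3K27me3, 1 input and 10 RNA samples were not analysed here. The submitters' processing notes name MACS2, the aligners Bowtie 0.12.7 and BWA 0.5.7, and the build mm9, along with RNA-seq tools (Cufflinks 2.2.1, TopHat, Cuffdiff). The sources used here do not tie an aligner to a list. Per the names of the deposited peaks, replicates were pooled and set against a control, but 6 lists have 1 sample in the labels. How the authors chose which peaks to list is not stated in those sources, and the lowest −log10 q differs between lists, from 3.69 for Sox2 after 24 h to 86.4 for Oct4 in serum. The Sox2 libraries carry RNA as molecule in the labels and were treated as ChIP.

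The authors give for each peak a fold enrichment, a ratio over control, a q-value as −log10 q, and a summit offset. No counts were used, so depth is unknown and the precision of a fold cannot be given. Percentiles are of fold within a list. Peaks were merged at an overlap of at least 1 bp (Python 3.11.15, pandas 2.3.3), and 13 pairs of lists were compared. The code was tested on simulated peaks. Alternatives were a shared −log10 q threshold, lists of equal length and an overlap of 50% of the shorter peak. All 7 loci are described. Regions described by position are those with H3K4me3, those in at least 3 factor lists, and those in 1 list of a pair with a fold above its list's median. The members, lists and rules were chosen with earlier results of these data known. Other genes of the pathway were not placed, since no mm9 annotation was used here, and the identity of the cells was not checked, since no expression values were used.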

Additional observations from a re-analysis of the deposited data

How the results depend on the processing

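The 26 counts of regions called in 1 list of a pair were computed again under 3 alternatives. With an overlap of 50% of the shorter peak, all 26 stayed within 1.5 times. With the longer list reduced to the size of its partner, 13 did. The other 13 were as follows. Here and below, brackets give the share of the regions at the loci and then that of all regions. For Nanog of lot 1 there were 8 regions in 24 h only (22.2%, 24%) and 7 in serum only (19.4%, 23.8%). Between 3 passages and serum, 8 were in 3 passages only (21.6%, 26%) and 10 in serum only (27%, 25.6%). Against 3 passages, 5 were in 24 h only (11.9%, 18.1%). For Nanog at 24 h there were 10 in TKO only against KH2 (30.3%, 29.7%). Between the lots, 10 were in lot 1 only (31.2%, 24.9%) and 7 in lot 2 only (21.9%, 24.8%). For Sox2 there were 3 in 3 passages only (17.6%, 26.4%) and 9 in serum only (52.9%, 26.5%). Between 3 passages and 24 h, 3 were in 3 passages only (25.0%, 23.2%) and 4 in 24 h only (33.3%, 23.2%). For Oct4 there were 2 in 24 h only (28.6%, 24.7%). With the larger of the lowest −log10 q of both lists as threshold, 17 stayed and 9 did not. For Nanog at 24 h, 16 were in lot 1 only (42.1%, 41.8%). For Sox2, 0 regions were in 24 h only (0.0%, 3.57%) and 17 in serum only (77.3%, 68.1%). Against serum, 0 were in 3 passages only (0.0%, 2.92%). Between 3 passages and 24 h, 3 were in 3 passages only (25.0%, 23.0%) and 4 in 24 h only (33.3%, 23.5%). For H3K4me3 there were 0 in 24 h only against serum (0.0%, 0.599%). Between 3 passages and 24 h, 21 were in 3 passages only (50%, 40.2%) and 0 in 24 h only (0.0%, 0.592%). Fewer peaks enter under both of these settings, and −log10 q of different lists need not be on 1 scale. No paired analysis was possible because only 1 list, without separate replicates, stands for each condition. For the same reason no replicate could be left out. Depth, unknown here, limits what an absent peak shows.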
